A study of Mus musculus with 33 samples.

Results

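The end of liver regrowth was described by setting the 3 livers collected 7 days (d) after a 70% partial hepatectomy against the 3 collected at 4 d. These 6 arrays belong to a mouse time course of 33, in which each of 11 times has 3 livers. The operation removes most of the liver, and the remnant grows back. Both groups carry that operation, and their titles set them apart by time. The 0 d livers give the resting level and the 14 d livers a later level. The labels used here name no sham-operated group and give no strain, sex or age. All 13642 genes that passed a filter on low signal enter the comparison, each read from a single probe set. A description field speaks of cells derived from fat, worded differently for 4 d and 7 d, whereas the tissue and source fields say liver. Albumin (Alb), the main plasma protein made by hepatocytes, lay between 14.70 and 14.77 on the log2 scale on the 6 arrays, so the arrays were read as liver.

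After loss of tissue, hepatocytes leave their quiescent state, copy their DNA and divide, and the other liver cells follow. Entry into mitosis depends on cyclins, mitotic kinases and the proteins of the spindle and the cleavage furrow, which are made in dividing cells and are scarce in resting liver. Growing cells also make membrane lipids and cholesterol, while the acute phase response, in which hepatocytes release plasma proteins under cytokine signals, begins within hours of surgery. Growth ends once the mass of the liver is restored.

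Replicates 1 and 3 of 7 d stood apart in marker genes of other cells. Of 28 Kupffer cell and macrophage genes, 27 were highest on replicate 1 among the 7 d arrays, and their mean log2 level was 9.30 there against 8.28 and 8.29 on the others. Of 11 adipocyte genes, 10 were highest on replicate 3. Adipoq, the fat cell hormone adiponectin, read 3.11, 2.96 and 7.07 at 7 d and 3.09, 3.13 and 3.31 at 4 d. Sex-biased liver genes also set replicate 1 apart, at 4 d and at 7 d. The mean log2 level of 26 male-biased genes was 9.69, 10.38 and 10.51 at 4 d and 9.98, 10.50 and 10.51 at 7 d. That of 22 female-biased genes was 7.48, 6.73 and 6.61 and then 7.17, 6.70 and 6.50. The cause was not tested. In bulk tissue a change in the number of cells of a type and a change in RNA per cell cannot be told apart.

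No gene passed the test between 7 d and 4 d. Of 13642 genes, 0 (0%) had an adjusted p under 0.05 by limma with Benjamini-Hochberg adjustment in a fit that shares the spread of all 33 arrays, and the lowest adjusted p was 0.0532. Of 4290 probe sets with no symbol or several, tested apart from the genes, 1 passed (adjusted p = 0.0236 by limma). Among the 13642 genes, 857 were lower and 406 higher at 7 d at an unadjusted p under 0.05. The same values fitted on the 6 arrays alone gave 27 genes, all lower, and with the replicate number as a block 65 lower and 5 higher. That blocked fit of the 6 arrays was chosen after the data were seen, here and wherever it is cited below. The labels do not say that livers of the same number belong together. The block in the fit on all arrays gave 2 genes, Cep55 lower and Pik3cd higher. The differences are the same in these fits, and the standard error and degrees of freedom are not. For the mitosis genes described below the median standard error was 0.33 with all arrays and 0.14 with the 6. Over all genes it was 0.12 and 0.11. Residual degrees of freedom were 22 with all arrays, 4 with the 6 and 2 with the 6 and the block. Differences below are log2 differences with the standard error of the fit on all arrays, and groups are described by how many members had all 3 arrays of 7 d on one side of all 3 arrays of 4 d. Over all genes 1556 (11.4%) lay wholly lower at 7 d in this sense and 706 (5.18%) wholly higher. That split depends on scaling, since quantile normalization gave 1073 lower and 1132 higher and a shift to a common median 1160 and 1106, and the median difference of all genes moved from -0.02 to 0.01.

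Genes of mitosis had the lowest median difference of the 38 gene lists described. Of 55 tested members, 42 lay wholly lower (76.4%, against 11.4% of all genes), 0 lay wholly higher, and the median difference was -0.85 against -0.02 for all genes. In the fit on the 6 arrays 15 of them passed, and 23 with the replicate block in that fit. The count was 42 under quantile normalization and a common median too, 44 without replicate 1 of 7 d and 45 without replicate 3, where 19.6% and 16.9% of all genes lay wholly lower.

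The promoters of several of these genes share short sequence elements. The cell cycle homology region, whose core is TTTGAA, and the CCAAT box are known in promoters of genes expressed late in the cell cycle. Sequences upstream of 4 mitosis genes with large differences are shown, from RefSeq on GRCm38.p6, with TTTGAA or its reverse complement TTCAAA and CCAAT or its reverse complement ATTGG in capitals. The Ccnb2, Top2a and Mki67 stretches are the 200 bases before the start of transcription (chr9:70421555-70421754, minus strand; chr11:99024190-99024389, minus strand; chr7:135716380-135716579, minus strand), and the Cep55 stretch is the 100 bases before the second of its 2 starts in the table (chr19:38054941-38055040, plus strand).
Ccnb2: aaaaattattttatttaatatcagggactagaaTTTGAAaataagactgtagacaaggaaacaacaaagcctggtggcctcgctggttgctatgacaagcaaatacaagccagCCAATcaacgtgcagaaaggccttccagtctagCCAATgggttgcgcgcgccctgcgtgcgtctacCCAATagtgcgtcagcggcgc
Top2a: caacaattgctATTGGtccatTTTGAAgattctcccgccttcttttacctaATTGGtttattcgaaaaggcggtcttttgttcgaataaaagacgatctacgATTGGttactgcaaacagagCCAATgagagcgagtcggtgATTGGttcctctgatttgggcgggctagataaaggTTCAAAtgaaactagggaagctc
Mki67: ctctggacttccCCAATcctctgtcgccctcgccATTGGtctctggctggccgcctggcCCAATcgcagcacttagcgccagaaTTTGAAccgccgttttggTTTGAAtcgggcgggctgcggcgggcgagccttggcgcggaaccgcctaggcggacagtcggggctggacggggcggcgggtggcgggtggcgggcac
Cep55: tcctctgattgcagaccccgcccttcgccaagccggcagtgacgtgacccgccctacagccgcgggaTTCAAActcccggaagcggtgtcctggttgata
The first of these stretches holds 1 TTTGAA and 3 CCAAT, that of Top2a 2 and 5, that of Mki67 2 and 3, and that of Cep55 1 and 0. Of 44 mitosis genes with a promoter in the table, searched on both strands from 250 bases before to 50 after the start, 30 (68.2%) held TTTGAA, against 14.8% of the 10959 tested genes with a promoter and 17.9% of all 32851 promoters. CCAAT was found in 32 of 44 (72.7%, against 42.3%), and both in 26 of 44 (59.1%, against 5.80%). Of 34 DNA replication genes, 5 held TTTGAA (14.7%). A match is a description of these letters, not a bound site.

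The largest difference belonged to Cep55, which acts in the final cut between daughter cells. It read 5.77, 6.25 and 6.13 at 4 d and 4.17, 4.09 and 4.14 at 7 d, a difference of -1.92 ± 0.33 (3.77-fold lower). All 7 d arrays lay within the 0 d range of 3.25 to 4.35. That range is below the log2 value of 5 used in the filter, so the resting end is at low signal. Its other probe set, at a mean of 3.40, differed by -0.28. Mki67, which encodes the proliferation marker Ki-67, read 7.43, 7.98 and 7.60 at 4 d and 6.40, 5.41 and 5.67 at 7 d (-1.84 ± 0.49). The 7 d arrays were all lower, and the highest of them, replicate 1, was above the 0 d mean of 5.56. Cyclin B2 (Ccnb2), which drives entry into mitosis with Cdk1, read 7.34, 8.11 and 7.72 and then 5.92, 5.50 and 6.30 (-1.82 ± 0.62).

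Of the 55 mitosis genes, 53 had a lower mean at 7 d and 2 a higher one. Of all 13642 genes, 7533 had a lower mean. Birc5, the survivin subunit of the chromosomal passenger complex, read 6.94, 7.16 and 7.02 at 4 d and 5.93, 5.08 and 5.36 at 7 d (-1.58 ± 0.42), back at its 0 d mean of 5.46. Topoisomerase Top2a, which untangles sister chromatids, read 6.88, 7.13 and 6.98 and then 6.07, 5.15 and 5.31 (-1.48 ± 0.37). Cyclin A2 (Ccna2) read 7.30, 7.92 and 7.75 and then 6.12, 6.0 and 6.48 (-1.45 ± 0.48). In each of these the groups did not overlap and replicate 1 or 3 was the highest at 7 d. Other members ranged from Cenpf, a kinetochore protein (-1.61 ± 0.53), the kinase Pbk (-1.53 ± 0.43), the ubiquitin-conjugating enzyme Ube2c (-1.48 ± 0.49) and the checkpoint kinase Bub1 (-1.38 ± 0.40) to Stmn1, a microtubule regulator (-1.26 ± 0.35), Plk1 (-1.07 ± 0.41) and Cdk1 (-0.92 ± 0.38). The 13 members whose groups overlapped include Cdc20 (-0.13), Foxm1 (-0.07) and Pttg1 (0.06).

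**Figure D1:**
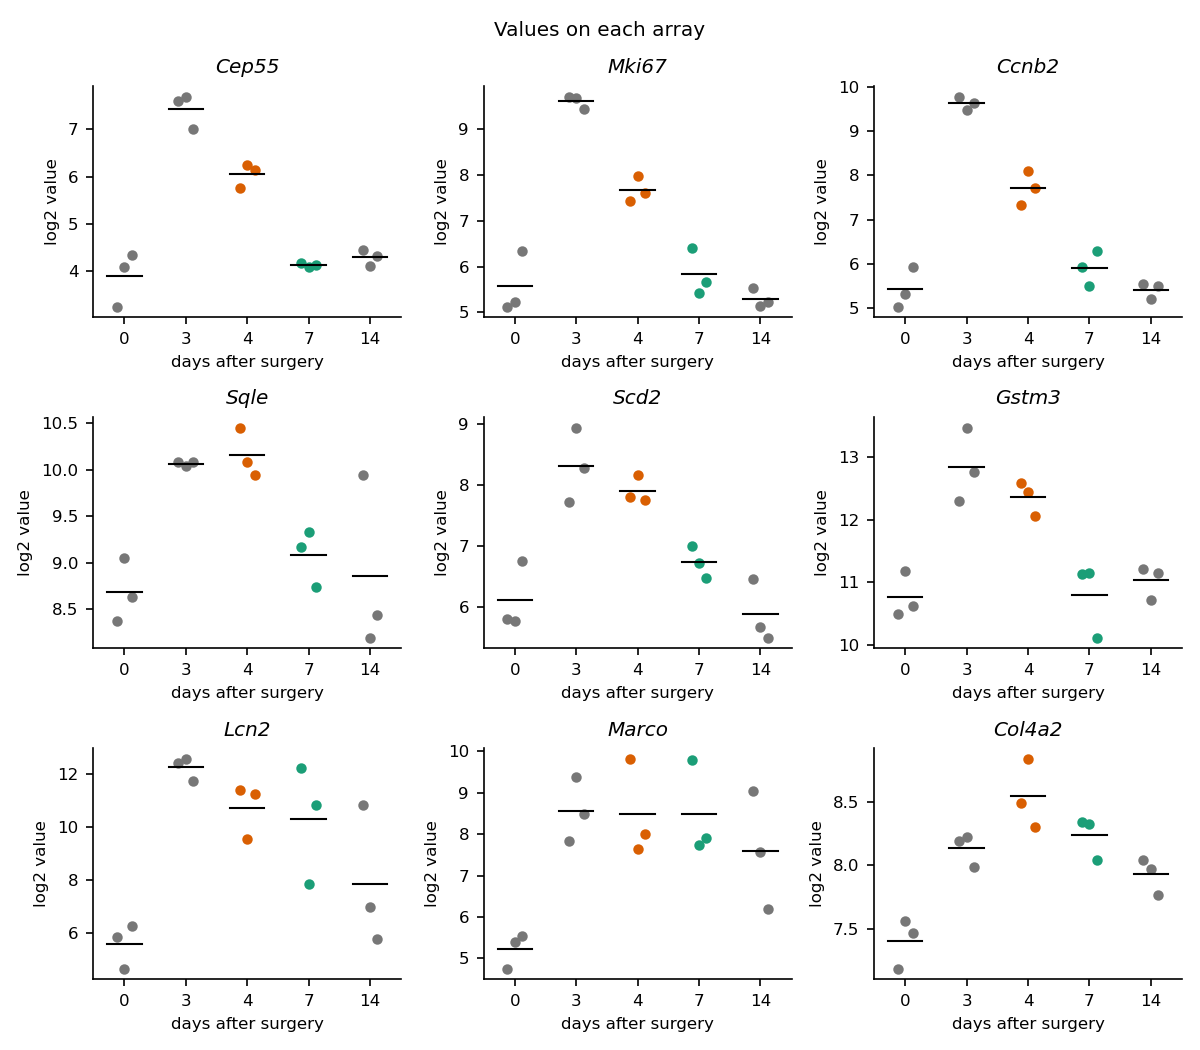
Log2 value of 9 genes on each array at 0, 3, 4, 7 and 14 d after surgery, with a line at the mean of the 3 arrays; 4 d is orange and 7 d green. Cep55, Mki67, Ccnb2, Sqle, Scd2 and Gstm3 lie wholly lower at 7 d than at 4 d. Lcn2, Marco and Col4a2 overlap between 4 d and 7 d and lie above the 0 d arrays at both times. At 14 d the Lcn2 arrays overlap those of 0 d.

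In the list's median, the larger part of the decline from 3 d came before 4 d. For Mki67 the mean log2 value was 9.60 at 3 d, 7.67 at 4 d, 5.83 at 7 d and 5.29 at 14 d, and the 3 d to 4 d step passed the test (-1.93, adjusted p = 0.0183 by limma). In the mitosis list 37 of 55 members fell between 3 d and 4 d, against 3.23% of all genes. The list's median difference from 0 d was 2.43 at 3 d, 0.94 at 4 d, 0.13 at 7 d and -0.02 at 14 d. The 4 d arrays enter both steps.

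Genes of DNA replication were closer to rest at 4 d and differed less. Of 43 tested members, 19 lay wholly lower (44.2%, against 11.4% of all genes) and 1 wholly higher (2.33%, against 5.18%). The median was -0.36. Rrm2, the ribonucleotide reductase subunit made in S phase, read 8.52, 8.54 and 7.81 at 4 d and 7.13, 6.99 and 6.63 at 7 d (-1.38 ± 0.48). Uhrf1, which helps copy DNA methylation, read 6.74, 5.55 and 5.66 and then 5.51, 4.58 and 4.23 (-1.21 ± 0.35). Replicate 1 was the highest at both times for Uhrf1, and likewise for the helicase subunits Mcm5 (7.83, 6.74 and 6.73, then 6.97, 5.73 and 5.49; -1.04 ± 0.39) and Mcm6 (8.47, 7.81 and 7.58, then 7.82, 6.67 and 6.33; -1.01 ± 0.36). The groups of Mcm5 and Mcm6 overlap. The 7 d array was lower than the 4 d array of the same number in all 3 cases, but the number is not known to pair livers. Both genes passed in the fit of the 6 arrays with the replicate block, chosen after the data were seen (adjusted p = 0.0199 and 0.0354 by limma). The clamp Pcna differed by -0.51 ± 0.20. The wholly higher member is Mcm10 (0.32 ± 0.32), whose other probe sets differed by 0.07 and -0.01.

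Chromatin genes of dividing cells and inhibitors of the cycle shared the direction. Of 16 chromatin genes 8 lay wholly lower (50%, against 11.4% of all genes) and 0 wholly higher, with a median of -0.29. The 16 include the methyltransferases Ezh2 (-0.43) and Dnmt1 (-0.43) and the histone chaperone Asf1b (-0.46). Of 21 inhibitors and p53 targets 6 lay wholly lower (28.6%) and 0 wholly higher. Cdkn3, a phosphatase of cyclin-dependent kinases, read 6.37, 6.91 and 6.46 at 4 d and 5.12, 5.13 and 5.38 at 7 d (-1.37 ± 0.51), and the inhibitor Cdkn1a, or p21, 6.98, 7.89 and 7.17 and then 6.77, 6.51 and 6.86 (-0.63 ± 0.46). Of 33 genes of the G1 phase and growth control 2 lay wholly lower and 2 wholly higher (6.06% each, against 11.4% and 5.18% of all genes). Cyclin D1 (Ccnd1), which carries growth signals into G1, read 10.29, 9.17 and 9.21 at 4 d and 9.89, 9.63 and 8.66 at 7 d, where the groups overlap (-0.16 ± 0.44), above a 0 d range of 7.81 to 8.25. Against 0 d the adjusted p of Ccnd1 was 0.0544 at 4 d and 0.184 at 7 d by limma, so it did not pass at either time.

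**Figure D2:**
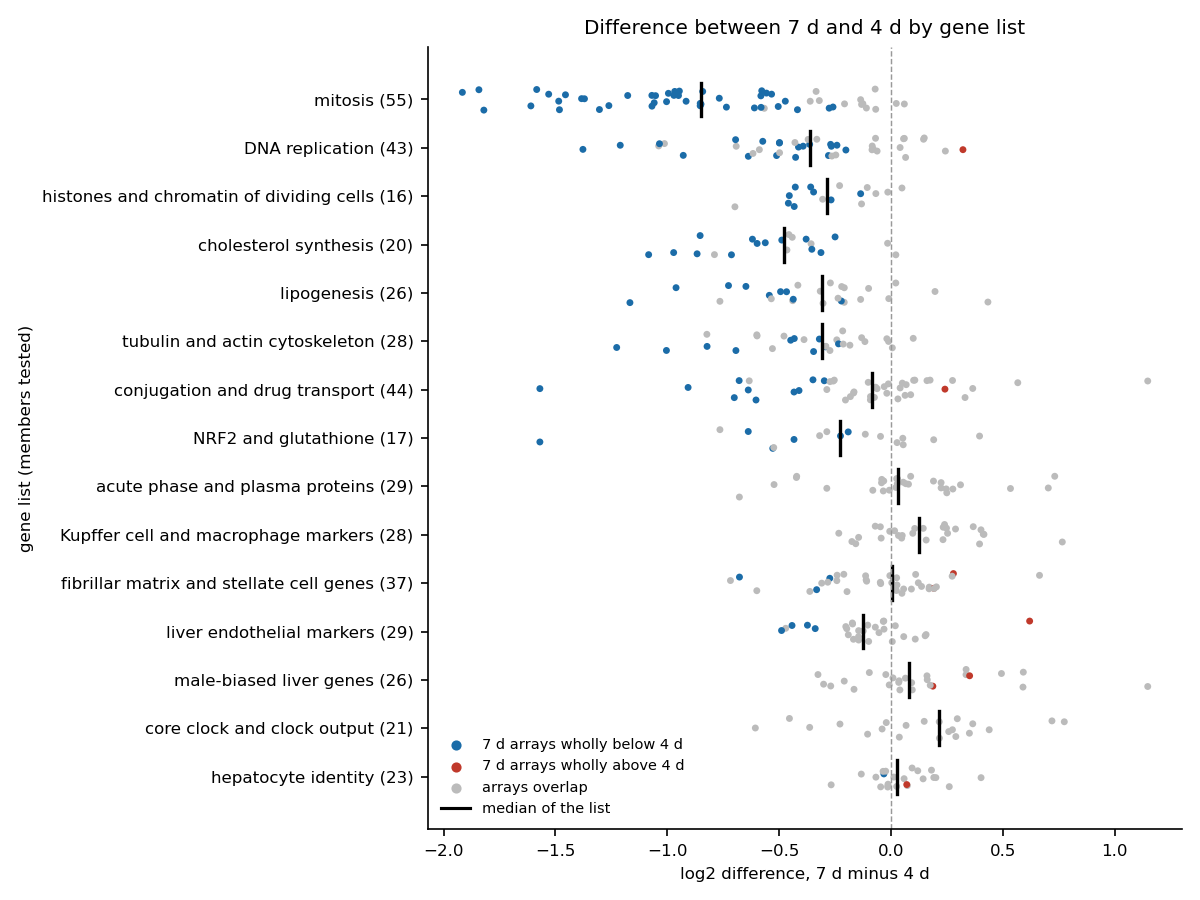
Log2 difference between the 7 d and 4 d means of each tested member of 15 gene lists, one point a gene, with a bar at the list's median; blue and red points are genes whose 7 d arrays lie wholly below or above the 4 d arrays. The mitosis list has the lowest median (-0.85), and the acute phase (0.03) and Kupffer cell (0.13) lists have no blue or red point.

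Genes of cholesterol synthesis had the next lowest median. Of 20 tested members 13 lay wholly lower (65.0%, against 11.4% of all genes) and 0 wholly higher, with a median of -0.48. The count was 10 under quantile normalization (50%, against 7.88% of all genes). With a common median it was 11 (55%, against 8.48%). Against 0 d, 0 of the 20 passed as higher at 4 d, so the level at which this step begins did not pass as raised. At 3 d, 4 of the 20 had passed as higher than 0 d and 1 as lower, against 1398 and 1490 of all 13642 genes. The list's median difference from 0 d was 0.46 at 4 d and -0.05 at 7 d. Sqle, which adds oxygen to squalene, read 10.45, 10.08 and 9.94 at 4 d and 9.17, 9.33 and 8.73 at 7 d (-1.08 ± 0.48). Fdps, which makes farnesyl pyrophosphate, read 11.66, 11.91 and 11.48 and then 10.74, 10.93 and 10.46 (-0.97 ± 0.35), and Hmgcs1, which makes the substrate of HMG-CoA reductase, 12.06, 12.43 and 12.15 and then 11.19, 11.55 and 11.30 (-0.87 ± 0.45). These groups did not overlap, and all 3 genes passed in the blocked fit of the 6 arrays (adjusted p = 0.0261, 0.0183 and 0.0199). Mvd (-0.85), Fdft1 (-0.71), Pmvk (-0.62) and Nsdhl (-0.60) were also wholly lower, while Srebf2, the regulator of the pathway, differed by -0.01. At 14 d the arrays spread widely: Hmgcs1 read 12.45, 10.82 and 10.85 there.

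CCAAT boxes, bound by NF-Y, are known in promoters of this pathway. All 16 cholesterol synthesis genes with a promoter in the table held CCAAT, against 42.3% of tested genes, and 1 held TTTGAA. The 200 bases before the start of Hmgcs1 (chr13:119690151-119690350, plus strand, GRCm38.p6) hold 2, shown in capitals as ATTGG.
Hmgcs1: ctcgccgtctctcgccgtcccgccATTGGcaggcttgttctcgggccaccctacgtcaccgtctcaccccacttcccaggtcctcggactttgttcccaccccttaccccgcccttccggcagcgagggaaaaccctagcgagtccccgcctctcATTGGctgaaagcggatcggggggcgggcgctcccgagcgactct

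Fatty acid synthesis genes had fewer members separated. Of 26 lipogenesis genes 9 lay wholly lower (34.6%, against 11.4% of all genes) and 0 wholly higher, with a median of -0.31. Scd2, a stearoyl-CoA desaturase, read 7.80, 8.17 and 7.75 at 4 d and 7.01, 6.72 and 6.48 at 7 d (-1.17 ± 0.34). Fatty acid synthase (Fasn) read 11.29, 11.60 and 10.80 and then 10.13, 10.50 and 10.18 (-0.96 ± 0.31). Scd2 had risen over 0 d at 4 d (1.79 ± 0.34, adjusted p = 0.00493 by limma), whereas Fasn had not passed (0.55 ± 0.31). Pgd (-0.73 ± 0.20), which makes NADPH, and the citrate lyase Acly (-0.65 ± 0.27) were wholly lower, and Srebf1 differed by -0.22 with overlapping arrays. Of 18 lipid droplet genes 6 lay wholly lower (33.3%, against 11.4% of all genes) and 1 wholly higher (5.56%, against 5.18%). Their median was -0.17. The apolipoprotein Apoa4 was among the 6, at 10.16, 10.52 and 10.05 and then 9.66, 9.58 and 9.45 (-0.68 ± 0.38), and the triglyceride lipase Pnpla2 was the higher one (0.26 ± 0.27).

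Among conjugating enzymes, most of the separated genes were glutathione transferases. Of 44 conjugation and transport genes 10 lay wholly lower (22.7%, against 11.4% of all genes) and 1 wholly higher (2.27%, against 5.18%). Of the 10, 8 were among the 13 glutathione transferases of the list, of which 0 had a higher mean at 7 d. That family was singled out after its values were seen. Gstm3 read 12.58, 12.44 and 12.06 at 4 d and 11.12, 11.14 and 10.11 at 7 d (-1.57 ± 0.54), and its other probe set differed by -1.73. Gstm2 read 10.61, 10.67 and 10.54 and then 9.81, 9.78 and 9.51 (-0.91 ± 0.23). Gstm2 passed in the fit of the 6 arrays (adjusted p = 0.0318). Members of this family are alike in sequence, and probes of Gstm3 can match more than 1 of them. Of 17 genes of glutathione and the oxidative stress regulator NRF2, 6 lay wholly lower (35.3%, against 11.4% of all genes). Under quantile normalization 4 did (23.5%, against 7.88%). This list shares Gstm3 with the conjugation list, so the 2 counts are not separate. The 6 include Txnrd1 (-0.23 ± 0.11), whose other probe sets differed by -0.24 and 0.06, and Srxn1 (-0.53 ± 0.20). Ptgr1, a reductase of reactive aldehydes, read 8.95, 8.75 and 8.60 and then 7.44, 7.50 and 7.02 (-1.45 ± 0.35).

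A list of cytoskeletal genes, which also holds genes that are neither tubulin nor actin, had a higher share wholly lower than all genes. Of its 28 tested members 10 lay wholly lower (35.7%, against 11.4% of all genes) and 0 wholly higher, with a median of -0.31. Its lowest difference was that of Lgals1, a galactose-binding lectin and not a cytoskeletal subunit. Lgals1 read 10.33, 10.40 and 9.91 at 4 d and 9.12, 8.95 and 8.90 at 7 d (-1.23 ± 0.38). Tubb6, a beta tubulin (-1.0 ± 0.43), S100a10 (-0.82 ± 0.23) and its partner Anxa2 (-0.69 ± 0.29) were wholly lower. Of 14 oncofetal and imprinted genes 3 lay wholly lower (21.4%, against 11.4% of all genes) and 1 wholly higher (7.14%, against 5.18%). Their median was -0.02, that of all genes. The 3 were Ly6d (8.48, 8.23 and 8.04, then 7.06, 6.62 and 7.39; -1.23 ± 0.46), the imprinted Mest (-0.42) and alpha-fetoprotein, Afp (-0.33). Ly6d was still above its 0 d range of 5.62 to 6.15 on all 7 d arrays. The secreted matricellular protein Smoc2, which is in no list and was named for its size, read 6.72, 7.94 and 7.09 and then 5.92, 5.81 and 5.43 (-1.53 ± 0.36).

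On the deposited scale fewer genes lay wholly higher than wholly lower, a split that quantile normalization turns. Pck1, the rate-limiting enzyme of gluconeogenesis, read 12.42, 12.21 and 12.08 at 4 d and 13.15, 13.13 and 12.79 at 7 d (0.79 ± 0.25), and another probe set, at a mean of 11.49, differed by 0.95. Igfbp3, which carries insulin-like growth factors, read 7.07, 7.70 and 7.43 and then 7.77, 8.41 and 8.19 (0.72 ± 0.28). Socs2, an inhibitor of growth hormone signalling, read 6.97, 7.68 and 7.86 and then 8.13, 8.26 and 8.81 (0.90 ± 0.69). None of these 3 overlapped, and Pck1, Igfbp3 and Socs2 passed in the blocked fit of the 6 arrays (adjusted p = 0.0323, 0.0324 and 0.045). Ugt2b38, a male-biased glucuronosyltransferase, read 6.51, 7.89 and 8.26 and then 7.60, 9.09 and 9.42 (1.15 ± 0.46). Its groups overlapped, and the 7 d array was higher than the 4 d array of the same number in all 3 cases (adjusted p = 0.0126 in the blocked fit). It is 1 of 26 male-biased genes tested, of which 2 lay wholly higher (7.69%, against 5.18% of all genes) and 0 wholly lower, with a median of 0.08. Among genes higher at 7 d, the largest separated difference was that of Cox8b, a cytochrome oxidase subunit of brown fat and muscle (1.22 ± 0.48), which read 4.84, 4.72 and 7.65 at 7 d; the high value is on replicate 3, the array on which Adipoq was high. The part of fat tissue in that value was not tested.

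Genes of hepatocyte functions are set against the 11.4% of all genes wholly lower and 5.18% wholly higher. Of 23 hepatocyte identity genes 1 lay wholly lower and 1 wholly higher, with a median of 0.03, and the transcription factor Hnf4a differed by -0.01 ± 0.08. Of 35 P450 genes 1 lay wholly lower (2.86%), Cyp2c55 (9.45, 9.61 and 9.36, then 8.32, 8.63 and 8.02; -1.15 ± 0.43), and 5 wholly higher (14.3%) by up to 0.28. Of 27 zonation genes 2 lay wholly lower (7.41%) and 5 wholly higher (18.5%), Pck1 being the one above 0.16. Both shares of wholly higher genes are above that of all genes, and the list medians were 0.05 and 0.04. Under quantile normalization 4 P450 and 6 zonation genes lay wholly higher, against 8.31% of all genes. Among 21 clock genes 0 were separated, with a median of 0.22, and Per1 read 7.11, 6.22 and 6.52 at 4 d and 7.83, 7.51 and 6.85 at 7 d. The hour of collection was not used here.

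To see what the slope from 4 d to 7 d looks like for genes chosen on other arrays, the 305 genes (2.24%) at least 2-fold higher at 3 d than at 0 d, with an adjusted p under 0.05 by limma, were followed. Of these, 171 lay wholly lower at 7 d than at 4 d (56.1%, against 11.4% of all genes) and 0 wholly higher. Their median was -0.49, and 67 of the 305 are in the mitosis or replication lists. The median share of the 3 d difference from rest still present was 46.0% at 4 d, 10.7% at 7 d and 0.72% at 14 d. Of 82 genes (0.601%) at least 2-fold lower at 3 d, 19 lay wholly higher at 7 d than at 4 d (23.2%, against 5.18% of all genes) and 1 wholly lower. Their median shares were 46.9%, 25.1% and 18.2%. The 0 d arrays enter the choice and every share.

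**Figure D3:**
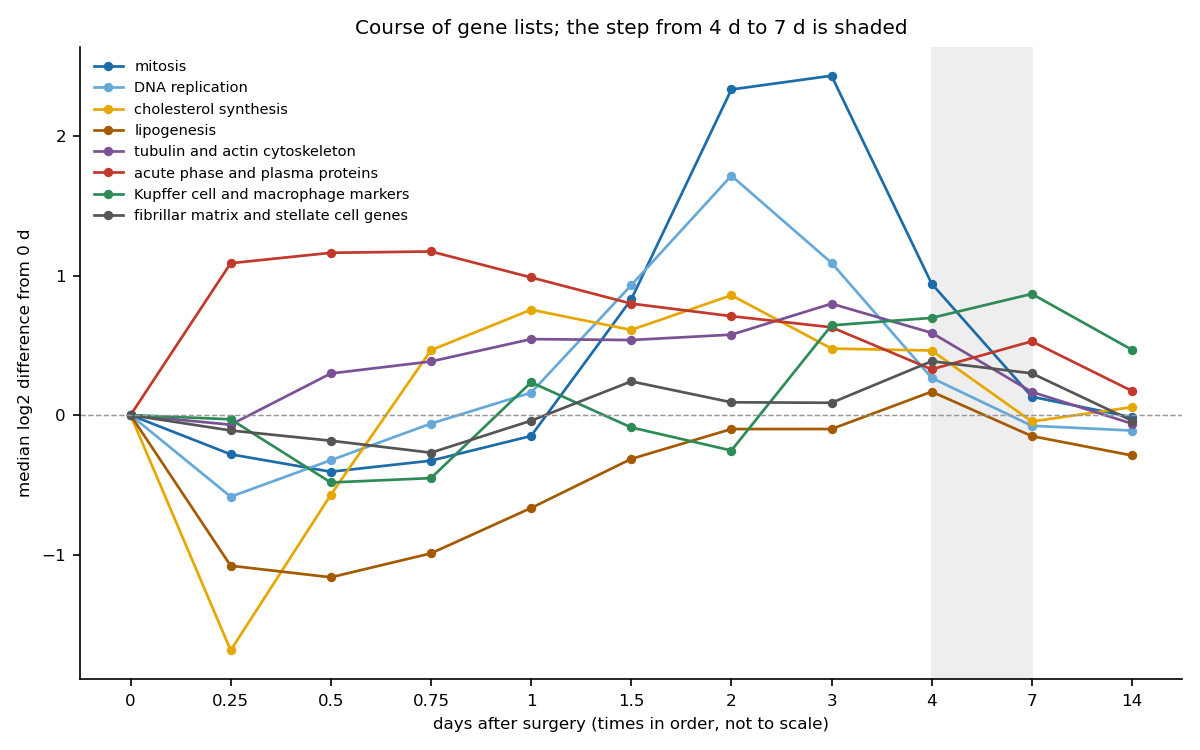
Median log2 difference from 0 d of the tested members of 8 gene lists at the 10 later times, drawn in order and not to scale, with the step from 4 d to 7 d shaded. Mitosis goes from 0.94 to 0.13 over that step and cholesterol synthesis from 0.46 to -0.05, whereas Kupffer cell genes go from 0.70 to 0.87 and acute phase genes from 0.33 to 0.53, both with replicate 1 of 7 d, without which their median differences between 7 d and 4 d were -0.17 and -0.10.

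Against rest, 390 genes (2.86%) differed at 4 d by limma at an adjusted p under 0.05, 257 higher (1.88%) and 133 lower (0.975%). At 7 d 25 genes did (0.183%), 17 higher (0.125%) and 8 lower (0.0586%). Of the 257, 133 lay wholly lower at 7 d than at 4 d and 1 wholly higher; the choice rests on the 4 d arrays, so nothing is read from that count. At 7 d, 62 of the 257 kept under 25% of their 4 d difference, 51 over 75%, and 144 between. A return to rest was set to require a rise at 4 d, a fall from 4 d to 7 d and no difference from 0 d at 7 d, and 0 genes (0%) met it, because none passed the second step. With array weights 79 did, with the 0 d, 4 d, 7 d and 14 d arrays alone 39, and with the 0 d, 4 d and 7 d arrays 8.

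A small set, 11 genes (0.0806%), was above 0 d at both 4 d and 7 d by the test. A fall between the times was also to be absent, which added nothing because 0 genes passed that comparison. They were hepatocyte acute phase genes (Lcn2, Saa1, Fgl1, Lrg1 and Itih4), macrophage genes (Marco and Wfdc17) and genes of basement membrane and extracellular matrix (Sparc, Col4a1, Col4a2 and Sod3). The set rests on single arrays. Without replicate 1 of 7 d, without replicate 1 of 0 d, or with only the 0 d, 4 d and 7 d arrays, 0 genes passed at 7 d against 0 d, so the set was empty. Without replicate 3 of 7 d it held 3, without replicate 2 of 7 d 27, and without replicate 3 of 0 d 18. With array weights 6 did.

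**Figure D4:**
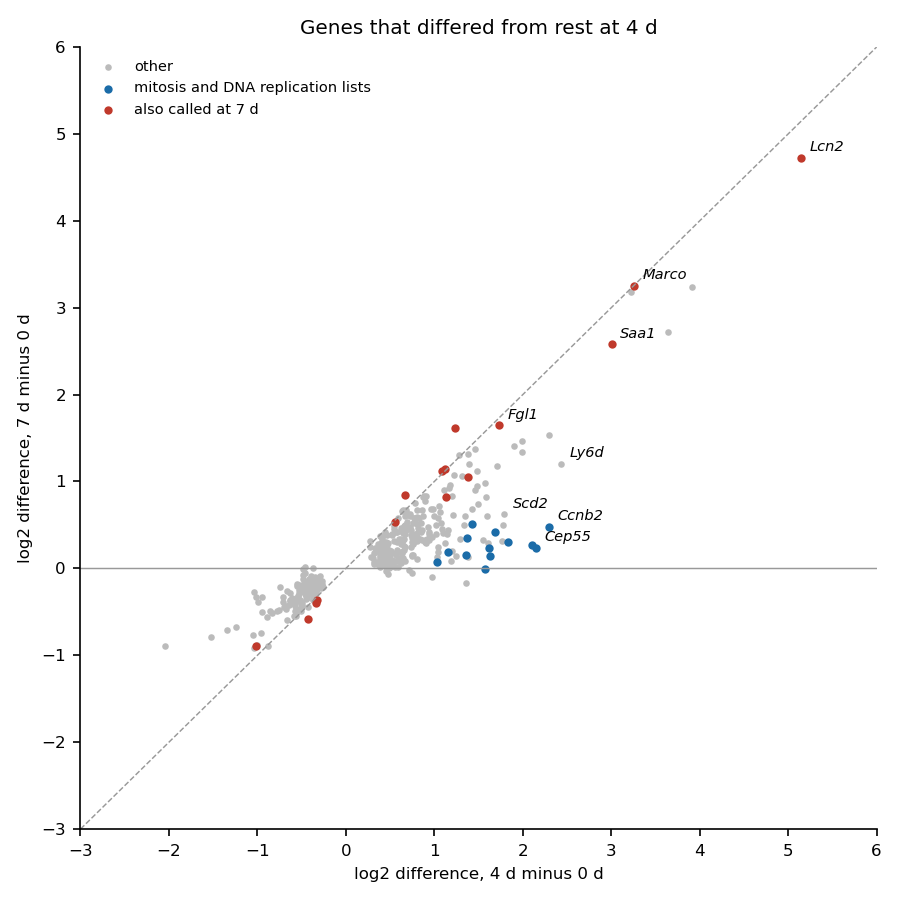
Log2 difference from 0 d at 4 d (horizontal) and at 7 d (vertical) for the 390 genes that differed from 0 d at 4 d, with the dashed line where both are equal; both axes use the same 0 d arrays. The 13 genes of the mitosis and replication lists (blue) lie below the dashed line, and the genes also called at 7 d (red) lie near the dashed line.

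Of the set, Lcn2 had the largest difference from rest, followed by Marco and Saa1. Lcn2, which binds bacterial siderophores, read 5.84, 4.64 and 6.27 at 0 d, 11.40, 9.53 and 11.25 at 4 d, 12.24, 7.84 and 10.86 at 7 d and 10.84, 6.96 and 5.75 at 14 d. All 7 d arrays lay above all 0 d arrays, and replicate 2 was far below the other two. The 7 d difference from rest was 4.73 (adjusted p = 0.0238 by limma, 0.000577 to 0.234 over the alternatives). Serum amyloid A1 (Saa1) read 11.20, 10.09 and 10.46 at 0 d and 14.28, 11.38 and 13.85 at 7 d (2.58, adjusted p = 0.0256), with probes that can match its close relatives. Fgl1, a fibrinogen-like protein secreted by hepatocytes, read 10.66, 11.09 and 11.14 at 0 d, 12.94, 12.45 and 12.70 at 4 d and 13.06, 12.05 and 12.71 at 7 d. Its 7 d difference of 1.64 had an adjusted p of 0.00377, and it kept its call in 12 of 16 alternatives. Replicate 2 was the lowest 7 d array for all 3 genes. Over the list, 9 of 29 acute phase genes had risen at 4 d (against 1.88% of all genes) and 3 at 7 d (against 0.125%). Of the 29, 28 had a 7 d mean above 0 d, and 23 were highest on replicate 1 at 7 d. Between 4 d and 7 d the list's median was 0.03 with 0 separated, -0.10 without replicate 1 of 7 d, and 0.27 without replicate 2 of 7 d, where 10 of 29 lay wholly higher (34.5%, against 8.58% of all genes).

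C/EBP factors are known regulators of acute phase genes, and the word TTGCNNAA, where N is any base, is a form of their site. It was found on either strand in 14 of 25 acute phase promoters (56.0%), against 10.4% of tested genes and 0 of 44 mitosis genes. The stretches from 200 to 51 bases before the start of Saa1 (chr7:46743031-46743180, minus strand) and from 250 to 101 bases before the start of Lcn2 (chr2:32387840-32387989, minus strand) each hold 1, in capitals.
Saa1: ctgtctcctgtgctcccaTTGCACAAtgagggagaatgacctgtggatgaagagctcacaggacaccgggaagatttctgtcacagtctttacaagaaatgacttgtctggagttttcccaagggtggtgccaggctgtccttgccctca
Lcn2: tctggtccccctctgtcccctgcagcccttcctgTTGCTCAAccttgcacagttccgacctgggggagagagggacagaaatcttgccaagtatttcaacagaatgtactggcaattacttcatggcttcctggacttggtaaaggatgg

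Marco, a scavenger receptor of macrophages, read 4.76, 5.39 and 5.55 at 0 d, 9.82, 7.64 and 8.01 at 4 d, 9.80, 7.75 and 7.91 at 7 d and 9.04, 7.57 and 6.20 at 14 d. Its 7 d and 4 d means differed by -0.0049 ± 0.63, and the 7 d difference from rest was 3.25 (adjusted p = 0.0256). Over the whole list, 27 of 28 Kupffer cell and macrophage genes had a 7 d mean above 0 d, but 1 passed at 7 d, Marco. The list's mean log2 level was 7.48 to 7.92 on the 0 d arrays, 8.21 to 8.89 at 4 d and 8.28 to 9.30 at 7 d, with replicate 1 the highest at both later times. The Kupffer cell receptors Clec4f (9.94, 9.28 and 9.25, then 10.11, 9.24 and 9.27), Timd4 (7.26, 6.52 and 6.54, then 7.77, 6.46 and 6.41) and Vsig4 (10.17, 9.37 and 9.64, then 10.78, 9.79 and 9.71) were likewise highest on replicate 1 at both times. None of the 28 was separated between 4 d and 7 d, which rests on the replicate 1 arrays. Without replicate 1 of 7 d, 8 lay wholly lower (28.6%, against 19.6% of all genes) and 1 wholly higher, with a median of -0.17, and without replicate 1 of 4 d, 7 lay wholly higher (25%, against 11% of all genes) and 0 wholly lower, with a median of 0.39. Wfdc17, expressed in macrophages, was 1.61 above rest at 7 d (adjusted p = 0.0344).

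Among the matrix genes, the 7 d livers lay close together. Col4a2, a chain of basement membrane collagen, read 7.19, 7.56 and 7.47 at 0 d, 8.49, 8.84 and 8.30 at 4 d and 8.34, 8.32 and 8.05 at 7 d, a 7 d difference from rest of 0.83 (adjusted p = 0.00627 by limma). Its partner Col4a1 was 1.05 above rest, and its 7 d arrays lay wholly below its 4 d arrays (-0.33 ± 0.22). Sparc, a collagen-binding matrix protein, read 9.44, 9.92 and 9.71 at 4 d and 9.76, 9.72 and 9.68 at 7 d, 1.12 above rest (adjusted p = 0.0124). The extracellular superoxide dismutase Sod3 read 7.03, 6.90 and 7.01 and then 7.29, 7.05 and 7.12, and was 0.85 above rest (adjusted p = 0.00377). Of 37 matrix and stellate cell genes 5 had risen at 4 d (against 1.88% of all genes) and 3 at 7 d (against 0.125%). The 3 were Col4a1, Col4a2 and Sparc. Fibrillar collagens read unevenly at rest: Col3a1 spanned 8.65 to 10.56 at 0 d and 10.32 to 10.62 at 7 d and did not pass.

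Genes below 0 d at both 4 d and 7 d were 4 (0.0293%): Calr3 (-0.90 at 7 d against 0 d), the focal adhesion protein Tns1 (-0.59), the sialic acid transporter Slc35a1 (-0.39) and the RNA exonuclease Xrn1 (-0.36). Calr3 read 5.79, 5.60 and 5.49 at 0 d and 4.57, 4.84 and 4.77 at 7 d. These values lie around the log2 value of 5 used in the filter, at low signal. Tns1 was also lower at 14 d, at 8.11 to 8.13 against 8.50 to 8.78 at 0 d. The MHC class II genes had fallen at 4 d for 3 of 9 members (against 0.975% of all genes), for example H2-Aa (-1.24, adjusted p = 0.048 by limma). H2-Aa read 8.47, 8.28 and 8.20 at 4 d and 9.64, 8.56 and 8.44 at 7 d, so the groups overlap and replicate 1 is the high one. Pik3cd, a lymphoid kinase subunit, read 11.39 to 11.44 at 4 d, 12.03, 11.83 and 12.01 at 7 d and 11.91 to 12.16 at 14 d (0.55 ± 0.10, adjusted p = 0.0689 between 7 d and 4 d). That is 1 of 6 probe sets of the gene and the others differed by -0.09 to 0.26, at log2 means of 3.34 to 6.0.

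By 14 d the difference from rest was 2 genes (0.0147%), Pik3cd and the chemokine receptor Ackr1, and 0 genes (0%) passed between 14 d and 7 d by limma, with 263 higher and 309 lower at an unadjusted p under 0.05. Of the 11 genes above 0 d at both 4 d and 7 d, all had a 14 d mean above 0 d, from 0.17 for Itih4 to 2.37 for Marco. None of them passed at 14 d. The same 0 d arrays entered the choice of the 11, which favours that direction, so nothing is read from it.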

How the data were processed

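Total RNA of mouse liver was hybridized to Affymetrix arrays from 5 µg, per the labels' protocols. The authors deposited log2 values, summarized by RMA, whose version the sources used here do not give, per the submitters' processing notes. RMA aligns the distributions of arrays, so a shift shared by most genes would be removed; for arrays, their number and the signal over background limit precision, not a read count. For each of 18193 genes the brightest probe set on average was used, among 34945 with a single symbol of 45101; 932 had several symbols and 9160 none. Testing was limited to genes reaching a log2 value of 5 on no fewer than 3 of the 33 arrays (13642; 4551 dropped). A mean per time was fitted by lmFit and eBayes of limma 3.58.1 (R 4.3.3; degrees of freedom 22 residual and 3.69 prior), two-sided, with Benjamini-Hochberg adjustment over all genes and a threshold of 0.05. The steps were tested on simulated data. P-values measure the spread between livers that the labels call biological replicates, and 0 pairs of arrays of a time held identical values.

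Gene lists (38, with 1015 genes, 921 measured and 876 tested) and members were chosen with earlier results of these data known. Genes were to be named from the 12 largest differences each way past the threshold, list members (any, where under 3 passed), the 8 largest of each return class, and cell markers; as 0 passed, the first part named none, and genes in no list were chosen after their values were seen. Arrays of 4 d and 7 d with the same replicate number deviated together to a small degree (correlations of deviations 0.319, 0.102 and 0.208). For arrays of 0 d and 4 d the correlations were 0.228, 0.070 and 0.070. Those of 0 d and 7 d did not deviate together (-0.08, -0.04 and -0.01). A fit with the number as a block is therefore given, although the labels do not say that it pairs livers. Promoters are RefSeq's, GRCm38.p6. The stretches printed, and the start used for Cep55, were set gene by gene, so a match in them is no result in itself. Alternatives were other filters, probe sets averaged, quantile and median scaling, weights per array, a robust prior with a trend, the block, fewer times and each array left out. Plots used matplotlib 3.10.9.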

Additional observations from a re-analysis of the deposited data

How the results depend on the processing

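Between 7 d and 4 d the count of genes past the threshold was 0 in the main fit, without a filter and with probe sets averaged. It was 1 with quantile normalization (0 higher, 1 lower), 3 with a common median (1 and 2), 3 with a trend and robust prior (1 and 2), 4 with a filter at a log2 value of 7 (1 and 3), 2 with the replicate block (1 and 1), 152 with array weights (17 and 135), 27 on the arrays compared (0 and 27), 70 with the replicate block on those arrays (5 and 65), 8 with 0 d, 4 d and 7 d (0 and 8) and 40 with 14 d added (1 and 39). The blocked fit on the arrays compared and the fit with 14 d added were chosen after seeing the data, as were the alternatives for 7 d against 0 d. Leaving out a 4 d or 7 d array gave 0 to 1. Against 0 d at 7 d, 25 genes became 15 with quantile normalization, 12 with array weights and 0 with either set of fewer times, and 0 to 48 with an array left out (0 without replicate 1 of either time, 4 without replicate 3 of 7 d, 38 without replicate 2 of 7 d, 48 without replicate 2 of 0 d). Late return from above, 0 genes, became 2 with the filter at 7, 1 with quantile normalization, 2 with a common median, 2 with the trend, 79 with weights, 1 with the block, 8 and 39 with fewer times and 0 to 2 with an array left out. Late return from below became 4 with weights, and a gene new and higher at 7 d was found once, 1 gene, with the filter at 7, the common median, the trend and the block. Above 0 d at both 4 d and 7 d, 11 genes became 6 with weights, 0 with fewer times and 0 to 27 with an array left out; below it at both, 4 genes became 1 with quantile normalization, 8 with a common median, 0 with fewer times and 0 to 16 with an array left out. Fewer samples, and so another estimate of the spread, are built into the fits on fewer arrays; for the rest the cause was not tested.

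Some of the named genes changed sign between 7 d and 4 d in some alternative, each with an adjusted p above the threshold there. Marco was 0.072 with probe sets averaged, 0.062 with quantile normalization and 0.026 with a common median. Xrn1 was 0.034 with probe sets averaged and 0.013 with quantile normalization. With array weights Lrg1 was -0.10 and Sparc -0.020. With an array left out the difference ranged from -1.38 to 0.82 for Lcn2, -0.98 to 0.47 for Saa1, -0.31 to 0.19 for Fgl1, -0.13 to 0.066 for Itih4, -0.17 to 0.32 for Lrg1, -0.66 to 0.66 for Marco, -0.098 to 0.14 for Sparc and -0.034 to 0.33 for Calr3. For Lcn2, Saa1, Fgl1 and Itih4 the higher end is without replicate 2 of 7 d and the lower without replicate 1. Values at low signal, at or below the log2 value of 5 used in the filter, can understate the size of a change.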
